A study of Arabidopsis thaliana with 48 samples.

Results

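A set of 164 genes, out of 31004 measured (0.529%), had higher transcript levels in *Arabidopsis thaliana* plants moved to long days (LDs) than in plants kept in short days (SDs). The genes were chosen by their measured values. For each gene the mean of the 3 SD arrays was subtracted from the mean of the 3 LD arrays in each of 4 genotypes, the 4 differences were averaged, and the gene was kept where this average was 0.8 or more on the log2 scale in leaves or in apices. The rule took 94 genes in leaves and 94 in apices, with 24 genes in both lists (25.5% of each), which left 70 genes chosen in leaves alone and 70 in apices alone. Because LD minus SD made the choice, the LD-SD difference in the tissue that chose a gene is given below as a description with no test. Tests are given for genes chosen in 1 tissue in the other tissue, for the mutants against wild type, and for leaves against apices.

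The samples were leaves and apices of Columbia plants that all carried a functional *FRIGIDA* (*FRI*) allele, which keeps *FLC* strongly expressed. The genotypes were wild type (WT, labelled FLC/SVP), the *svp-41* mutant (FLC/svp), the *flc-3* mutant (flc/SVP) and the double mutant (flc/svp), written *svp*, *flc* and *flc svp* below, and each mutation was represented by 1 allele. Soil-grown plants were kept in SDs for 2 weeks and sampled, or received 2 LDs first, with harvest at 8 h of light. Each of the 16 groups of genotype, day length and tissue had 3 biological replicates, measured on AGRONOMICS1 tiling arrays (48 arrays, 1 a sample), and values are log2 levels. One label of the SD samples speaks of 2 additional short days where the other labels speak of 2 weeks, so the LD plants may have been older, and age cannot be told apart from day length. The harvest also lay closer to dusk in SDs, and time before dusk cannot be told apart from day length either. In these bulk samples a change in the share of a cell type cannot be told apart from a change of RNA per cell.

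Arabidopsis flowers earlier in LDs, mainly because LDs allow the CONSTANS protein to activate *FT* in the leaf veins, and the MADS-box repressors FLC and SVP hold back *FT* in leaves and *SOC1* in apices. A longer light period also changes the supply of sugar, the light that the photosystems receive and the phase of the circadian clock at a given hour. Pathogenesis-related (PR) proteins and lectins are known from defence, secretory peroxidases from wall building and glutathione transferases from detoxification. The chosen genes held 8 defence proteins, 5 lectins, 9 secretory peroxidases and 3 glutathione transferases beside 72 genes put in no role group. The role groups were formed after the values were seen, and no enrichment was tested.

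Array medians lay between 4.27 and 4.38, and arrays of a group correlated at r between 0.986 and 0.993. *FLC* ranged from 8.40 to 9.29 in leaves with the functional allele and from 5.09 to 5.86 in leaves of *flc* and *flc svp*, and *SVP* from 7.77 to 8.59 against 6.46 to 7.63, so every array matched its label. In apices the ranges were 9.12 to 9.80 against 5.95 to 7.05 for *FLC* and 7.41 to 8.01 against 6.51 to 6.86 for *SVP*. The meristem genes *STM*, *KNAT1*, *KNAT2* and *KNAT6* were higher in apices, 4 of 10 apex markers, while the stem cell genes *CLV3* and *WUS* were low in both tissues. Of 6 leaf markers, 5 were higher in leaves (average of 11.48 to 11.81 on leaf arrays). Apices still held them, with an average of 9.88 to 10.30 in SDs and 9.69 to 10.15 in LDs, and whether this shift bears on the apex values was not tested. Of 5 root markers only *PYK10* differed between the tissues, being higher in apices.

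The 94 genes chosen in leaves had LD-SD differences from 0.80 to 1.96 (median 1.00), while the median of all genes was 0.01 and 173 genes lay at the same distance or further on the other side. In apices the differences ran from 0.80 to 3.18 (median 1.03), against a median of −0.01 for all genes and 89 genes on the other side. Just inside the threshold in leaves lay *AT1G72060* (0.802) and *AT2G39400* (0.805), and just outside *HAT2* (0.797) and *AT2G17880* (0.797). In apices *CORI3* (0.801) and *UMAMIT12* (0.81) lay just inside, and *AT4G32480* (0.797) and *BCB* (0.796) just outside. Of the 164 chosen genes, 141 lay above the median gene (4.34) in mean level over the arrays. All 94 leaf genes had a positive LD-SD difference in each of the 4 genotypes, and so did 93 of the 94 apex genes. The exception was *AT3G22620*, which encodes a protein of the lipid transfer family and had a difference of −0.46 in apices of WT.

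**Figure D1:**
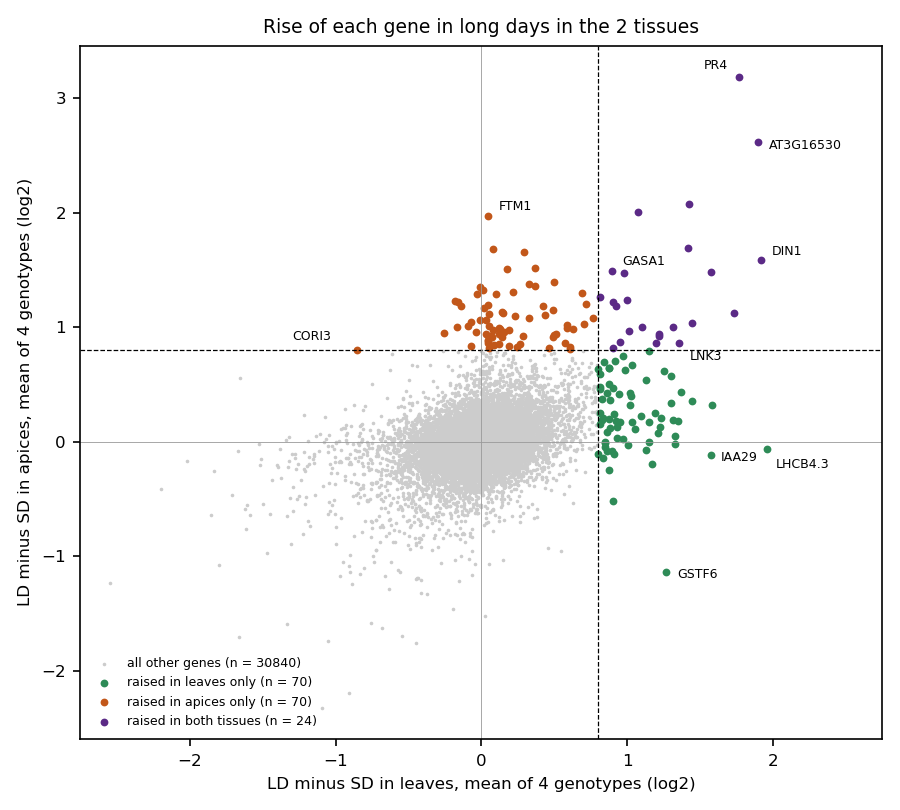
LD minus SD (log2, averaged over the 4 genotypes) of every gene in leaves (x axis) and in apices (y axis), with dashed lines at the threshold of 0.8. The 24 genes chosen in both tissues lie at the upper right and reach 1.77 and 3.18 in *PR4*, while *GSTF6* lies at 1.27 in leaves and −1.14 in apices.

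Among leaf genes the median LD-SD difference was 1.02 in WT, 1.02 in *svp*, 1.25 in *flc* and 1.01 in the double mutant, and *flc* had the largest of the 4 values in 41 of 94 genes. Among apex genes the medians were 1.13, 1.07, 1.13 and 0.92, and the double mutant had the largest value in only 12 of 94 genes. A difference of more than 2-fold in all 4 genotypes was present in 12 leaf genes and 16 apex genes. All 12 LD arrays lay above all 12 SD arrays for 4 genes in leaves and for 16 in apices, so the values of LDs and SDs overlapped for most of the chosen genes once genotypes were pooled. These counts come from the values that the rule used. They have no share of all genes beside them and are a description.

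Replicate numbers stood apart in several gene groups, and this bears on the values that follow. The LD-SD difference was recomputed from the arrays of 1 replicate number at a time, averaged over genotypes. All 94 leaf genes and all 94 apex genes had a positive difference in each of the 3 numbers, but only 26 leaf genes and 40 apex genes reached 0.8 in all 3. The median over leaf genes was 0.76 in replicate 1, 1.13 in replicate 2 and 1.29 in replicate 3, and over apex genes 0.94, 1.09 and 1.21. The 3 values of a gene spread over more than 1 on the log2 scale for 28 leaf genes and 16 apex genes. With replicate 1 left out the rule would have taken 263 genes, 177 in leaves and 121 in apices, against 164 without replicate 2 and 142 without replicate 3. The labels do not say whether a number marks a shared planting or harvest, and the source of these differences was not tested.

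**Figure D2:**
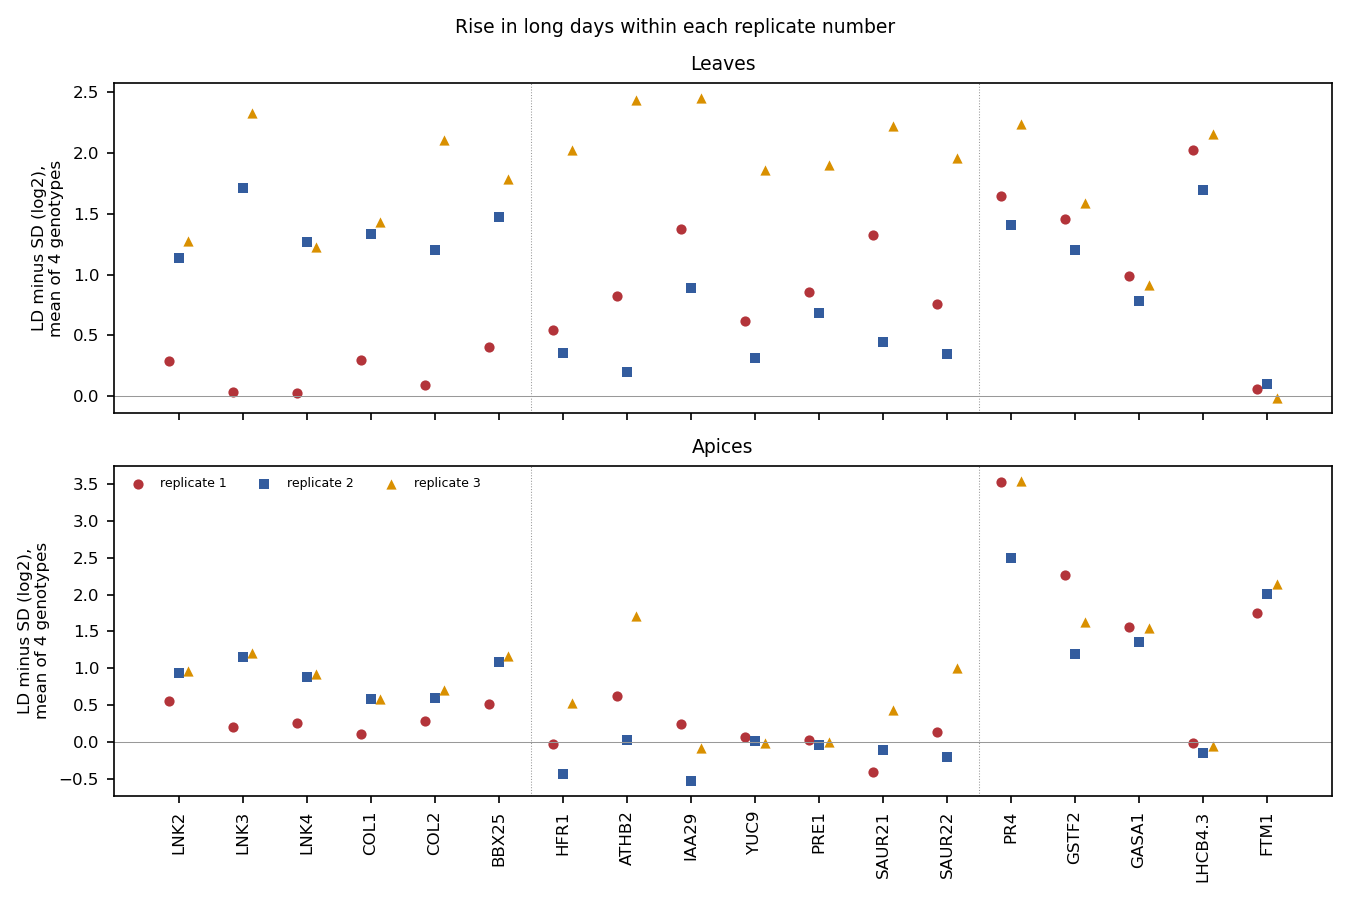
LD minus SD (log2, averaged over the 4 genotypes) within replicate numbers 1, 2 and 3 for 18 of the chosen genes, in leaves (top) and apices (bottom), with clock and *BBX25* genes at the left, shade and auxin genes in the middle and 5 genes of other roles at the right. *LNK3* lay at 0.04, 1.71 and 2.33 in leaves and *ATHB2* at 0.82, 0.20 and 2.44, while *LHCB4.3* lay at 2.03, 1.69 and 2.16.

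The largest LD-SD difference in apices was that of a defence protein. *PR4*, a chitin-binding hevein-like protein, ranged in WT apices over 7.88, 9.31 and 8.10 in SDs and 11.38, 11.58 and 11.56 in LDs. In WT leaves *PR4* stood at 7.40, 7.31 and 7.30 in SDs and 9.42, 9.34 and 9.17 in LDs. The LD arrays lay clear above the SD arrays in both tissues of WT. Averaged over genotypes the difference of *PR4* was 3.18 in apices and 1.77 in leaves, the highest and the fourth highest of all genes. Over all genotypes the LD apex arrays reached from 9.27 to 11.58 (median 10.66) and the SD apex arrays from 6.13 to 9.38 (median 7.03), which overlapped at their edges.

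Of 8 defence proteins, 7 were chosen in apices and 4 in leaves. The plant defensin *PDF1.2A*, a target of jasmonate and ethylene, differed by 1.73 in leaves and 1.13 in apices, and its neighbour in sequence *PDF1.3* by 1.59 in leaves and 0.32 in apices. *PDF1.2A* varied widely, with SD leaf arrays from 3.13 to 9.33 (median 4.56) and LD leaf arrays from 3.92 to 9.84 (median 6.40). The basic chitinase *HCHIB* differed by 1.18 in apices and by −0.14 in leaves. The apoplastic lipid transfer proteins of systemic immunity, *AZI1*, its neighbour *EARLI1* and *DIR1*, differed by 1.26, 1.18 and 0.96 in apices. The glucanase *PR2*, a marker of salicylic acid, differed by 1.38 in apices and 0.33 in leaves.

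All 5 lectins were chosen in apices, and the legume-type lectins *AT3G16530* and *AT3G15356* in leaves as well. *AT3G16530* ranged in apices from 6.09 to 8.12 (median 6.71) in SDs and from 8.06 to 10.47 (median 9.62) in LDs. Only the edges of these ranges met, and the LD-SD difference was 2.61 in apices and 1.90 in leaves. *AT3G15356* stood in WT leaves at 6.22, 5.52 and 5.72 in SDs and at 9.09, 8.95 and 8.65 in LDs. In *flc* leaves the same gene was already at 9.98, 9.43 and 8.41 in SDs and stood at 9.80, 10.33 and 10.07 in LDs. Its LD-SD difference was therefore 3.08 in WT leaves, with no overlap of arrays, and 0.80 in *flc* leaves, where the arrays overlapped. Tested directly in limma, the value of *flc* minus that of WT did not pass the call thresholds given below (−2.28 ± 0.50, adjusted p = 0.0272). The jacalin-related *JAL23* differed by 1.68 in apices and 0.08 in leaves.

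The glutathione transferases *GSTF2*, *GSTF6* and *GSTF7*, enzymes of detoxification induced by pathogens, were all chosen in leaves with differences of 1.42, 1.27 and 1.37. *GSTF2* was also chosen in apices (1.69) and *GSTF7* was not (0.44). *GSTF6* stood in WT apices at 9.64, 10.05 and 9.56 in SDs and at 8.07, 9.15 and 7.84 in LDs, and in WT leaves at 5.89, 7.16 and 7.0 in SDs and 8.41, 8.19 and 8.0 in LDs. The LD arrays of WT thus lay below the SD arrays in apices and above them in leaves. In apices, which had no part in its choice, *GSTF6* fell by 1.14 ± 0.26 (SE, 12 against 12 arrays, adjusted p = 0.00195). Adjusted p here and below come from 1 limma fit with Benjamini-Hochberg adjustment over all genes. *GSTF6* and *GSTF7* are neighbours of similar sequence, and probes that both match would mix their signals.

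The apex list also held 9 peroxidases. These secretory (class III) peroxidases, which oxidise phenolics and cross-link walls, had differences from 0.81 to 2.00 in apices, and only *AT4G11290* was also chosen in leaves (1.07). *AT4G11290* stood in WT apices at 7.49, 7.74 and 6.92 in SDs and 8.62, 8.63 and 9.01 in LDs, and in WT leaves at 3.76, 3.76 and 3.76 in SDs and 4.32, 5.33 and 5.74 in LDs. LD arrays of WT lay above SD arrays in both tissues. The LD-SD difference of the other 8 peroxidases in leaves ran from −0.18 to 0.50. The average of the 5 root markers lay between 5.06 and 5.37 on SD apex arrays and between 4.99 and 5.27 on LD apex arrays. None of the 5 was called in a comparison of day lengths or genotypes. Apart from *PYK10* (10.31 to 11.77 in apices), these markers were low there, between 2.88 and 4.72, so the average could show little. Whether a share of root tissue bears on the peroxidase values was not tested.

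Other genes of walls, cuticle and lipids were mostly chosen in apices. The fasciclin-like arabinogalactan protein *FLA9* differed by 1.08 in apices, the pectin methylesterase *PMEPCRA* by 1.00 and the xyloglucan endotransglucosylase *XTH17* by 0.93, while the β-xylosidase *BXL1* was chosen in both tissues (1.32 in leaves, 1.00 in apices). Among GDSL-type lipases, *GLL22* differed by 1.5, *AT2G23540* by 0.97 and *AT1G74460* by 0.86 in apices. *FTM1*, a stearoyl-ACP desaturase known as a floral transition gene of the meristem, stood in WT apices at 4.00, 4.06 and 3.91 in SDs and at 5.73, 6.08 and 6.73 in LDs. In leaves all 24 arrays of *FTM1* lay between 3.47 and 3.99. All 12 LD apex arrays (4.73 to 6.79) lay above all 12 SD apex arrays (3.53 to 4.35), and the difference was 1.97 in apices and 0.05 in leaves.

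Genes of the gibberellin-stimulated, DEVIL peptide and methylesterase families were chosen in apices, in leaves or in both. *GASA1*, a small cysteine-rich protein of the gibberellin-stimulated family, ranged in apices from 7.37 to 8.09 in SDs and from 8.49 to 9.59 in LDs without overlap, with a difference of 1.49. In leaves *GASA1* differed by 0.89 and its ranges overlapped (9.01 to 9.85 in SDs, 9.61 to 10.66 in LDs). *GASA5* differed by 1.22 in apices alone. *ROT4* and *RTFL14*, which encode DEVIL peptides that regulate cell proliferation in organs, differed by 1.17 and 1.08 in apices. The methylesterase *MES1*, which hydrolyses methyl salicylate, differed by 1.65 in apices and 0.29 in leaves, whereas the related *MES7* and *MES18* were chosen in leaves (1.35 and 0.85).

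Clock and photoperiod genes were chosen mainly in leaves. *LNK2*, *LNK3* and *LNK4* belong to the family of light-regulated co-activators that link the morning clock to the *PRR5* promoter, and *COL1* and *COL2* are relatives of *CONSTANS*. *LNK3* stood in WT leaves at 5.65, 5.17 and 5.46 in SDs and at 5.51, 7.23 and 7.56 in LDs, in the order of replicates 1, 2 and 3. In *svp* leaves the LD values were 5.46, 7.34 and 7.42, in *flc* 4.70, 6.49 and 7.09, and in *flc svp* 4.76, 5.47 and 7.20. The LD array of replicate 1 was thus the lowest of its group in every genotype and lay within its SD range or just above it.

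The 5 clock genes shared this pattern. Their median LD-SD difference in leaves was 0.09 in replicate 1, 1.27 in replicate 2 and 1.43 in replicate 3, and in apices 0.27, 0.89 and 0.93. *COL2* lay in leaves at 0.09, 1.2 and 2.11 and *LNK4* at 0.02, 1.27 and 1.23. The B-box factor *BBX25*, which acts in photomorphogenesis, lay at 0.40, 1.48 and 1.79. Averaged over the numbers, *LNK3* differed by 1.36 in leaves and 0.86 in apices, *COL2* by 1.13 and 0.54, *COL1* by 1.02 and 0.43, *LNK2* by 0.90 and 0.82, and *LNK4* by 0.84 and 0.69.

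Shade and auxin genes chosen in leaves had another dependence on replicate. *HFR1* and *ATHB2* are shade-induced transcription regulators, *YUC9* makes auxin, *IAA29* is an auxin repressor, *PRE1* a growth-promoting helix-loop-helix protein, and *SAUR16*, *SAUR21*, *SAUR22* and *SAUR71* are small auxin-up RNAs. *ATHB2* stood in SD leaves at 6.14, 6.12 and 6.08 in WT, 6.34, 8.85 and 6.53 in *svp*, 6.07, 9.26 and 6.36 in *flc* and 6.30, 9.61 and 5.93 in *flc svp*. In LD leaves it stood at 5.84, 6.49 and 6.84 in WT and at 8.58, 9.14 and 9.39 in *flc svp*. Replicate 2 was far above the other SD arrays in the 3 mutants and not in WT.

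Within replicate numbers 1, 2 and 3 the LD-SD difference of *ATHB2* in leaves was 0.82, 0.20 and 2.44, that of *HFR1* 0.54, 0.36 and 2.03 and that of *YUC9* 0.61, 0.32 and 1.86. In apices *ATHB2* differed by 0.79, just under the threshold, with a positive value in all 4 genotypes, whereas *HFR1* differed by 0.03. Of the 9 auxin and growth genes, 7 were chosen in leaves alone and had apex differences from −0.11 to 0.32, and the other two were chosen in apices alone. The median difference of the 9 genes in leaves was 0.27 in WT, 0.74 in *svp*, 1.43 in *flc* and 1.52 in the double mutant. These medians come from arrays among which replicate 2 of SDs stands apart in the mutants. The largest leaf value in the group was that of *IAA29*, with a difference of 1.57 in leaves, where SD arrays ran from 4.96 to 8.27 and LD arrays from 6.19 to 8.89, and −0.11 in apices.

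Light-harvesting and pigment genes gave the largest leaf difference of all. *LHCB4.3*, an antenna protein of photosystem II known to accumulate in strong light, ranged in leaves from 5.91 to 6.88 (median 6.08) in SDs and from 7.82 to 8.56 (median 8.19) in LDs. The LD and SD arrays did not overlap in leaves, and the difference was 1.96. In apices both day lengths lay between 5.80 and 6.28, and the difference was −0.07. *LHCB2.3* differed by 0.59 in leaves and 1.01 in apices, and the β-carotene hydroxylase *BCH2* by 1.22 and 0.07. The early light-induced protein *ELIP1* and the B-box factor *BBX29* were chosen in apices (0.83 and 0.86).

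Genes of sugar supply and nitrogen recycling were split between the tissues. *DIN1*, also called *SEN1*, is induced in darkness and by sugar starvation. In leaves it ranged from 5.54 to 8.04 (median 7.35) in SDs and from 6.81 to 11.06 (median 9.43) in LDs, and in apices from 4.73 to 6.78 (median 6.01) and from 5.75 to 8.90 (median 7.67). The ranges overlapped in both tissues, and the differences were 1.92 and 1.59. Chosen in apices alone were the proline dehydrogenase *ERD5* (1.51), the glutamate dehydrogenase *GDH2* (1.13), the galactinol synthases *GolS1* (1.11) and *GOLS3* (0.92) and the β-amylase-like *BAM9* (0.99). *GDH1* (0.82), the β-galactosidase *BGAL4* (1.03) and the energy-signalling factor *bZIP63* (0.83) were chosen in leaves. Like the clock genes, *ERD5* in apices was lowest in replicate 1 (0.64, 2.15 and 1.75), whereas *GolS1* was high in replicate 2 alone (0.76, 2.23 and 0.34).

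The 4 genes of sulfur and metal nutrition were chosen in leaves alone, namely the sulfur starvation gene *SDI1* (0.85), the adenylylsulfate reductase *APR2* (0.94), the nicotianamine synthase *NAS1* (0.90) and the ferric reductase *FRO6* (1.23). The 9 further transcription factors included *TCP1* (0.88 in apices), the LOB-domain genes *LOB* (0.84) and *LBD41* (0.98), and *MYBL2*, a repressor of anthocyanin synthesis that differed by 0.91 in leaves and −0.52 in apices. The transporters *UMAMIT12* and *UMAMIT14* differed by 0.81 and 1.19 in apices. The remaining 72 genes of other or unknown function included *AT1G27020* (1.57 in leaves, 1.48 in apices), *AT1G21050* (1.44 and 0.36) and *AT4G27450*, an aluminium-induced protein (1.44 and 1.03). The stress protein *SAG21* differed by 1.15 in apices, and in leaves by 1.51 in WT and −0.35 in *flc*. For *SAG21* the direct test of *flc* against WT in leaves was not called (adjusted p = 0.282 in limma).

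**Figure D3:**
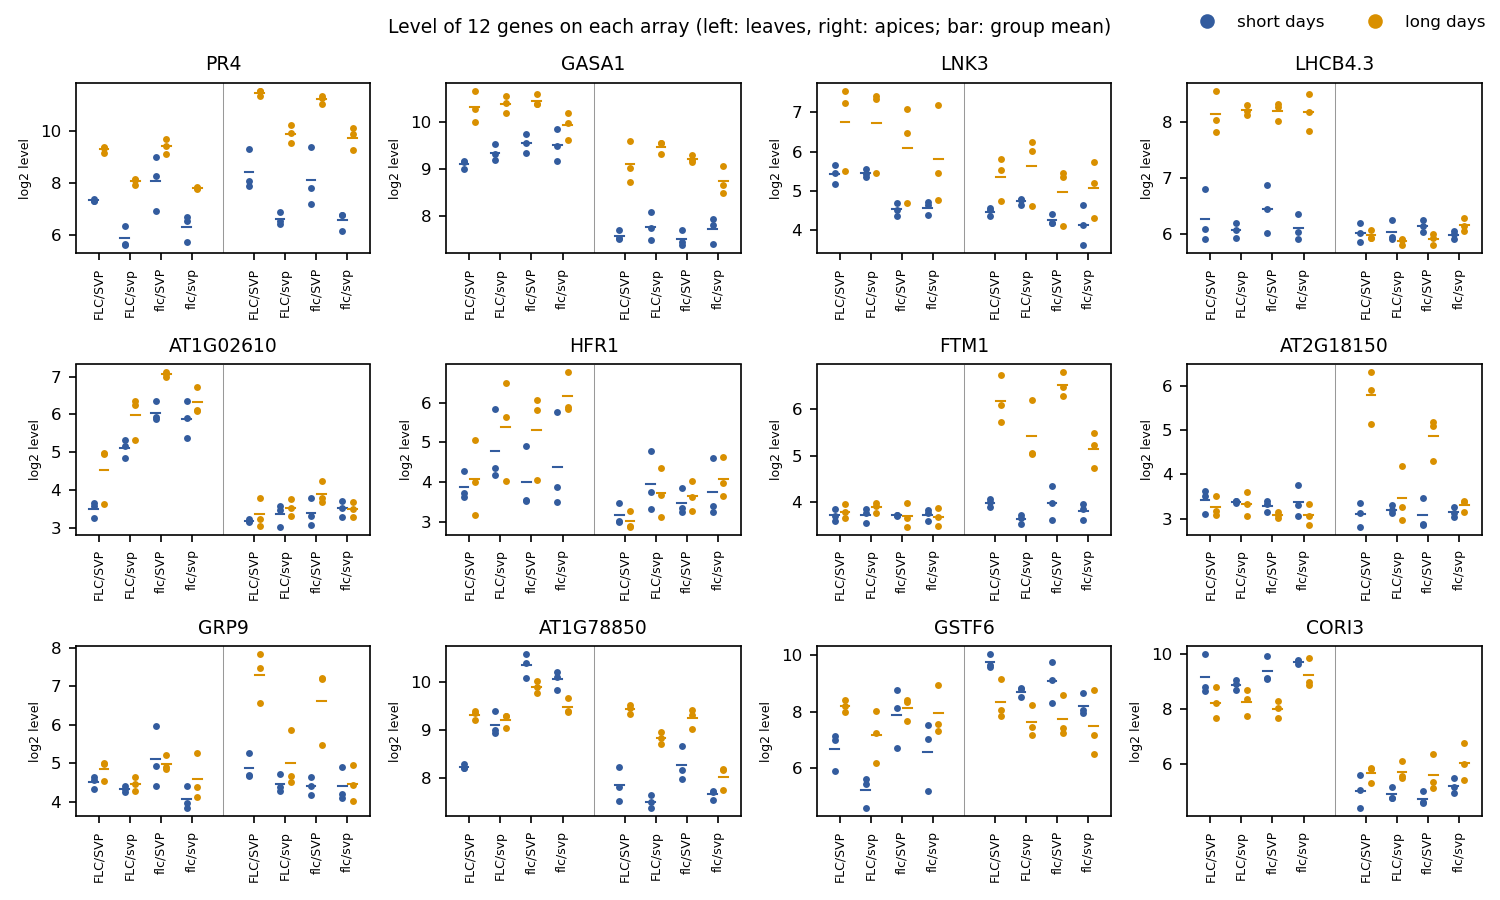
Log2 level of 12 of the chosen genes on each of the 48 arrays (points), by genotype, with leaves at the left and apices at the right of each panel, SDs in blue, LDs in orange and bars at the mean of 3 arrays. *LHCB4.3* separates LDs from SDs in leaves alone, *FTM1* in apices alone, and *AT2G18150* in apices of WT and *flc* alone, where LD arrays lie between 4.3 and 6.31.

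The leaf list was set by leaf arrays and the apex list by apex arrays, and each list was then examined in the other tissue. Calls below required a change over 2-fold together with an adjusted p under 0.01. Of the 94 genes chosen in leaves, 15 were called higher in LDs in apices, against 0.168% of all genes, and 1 (*GSTF6*) was called lower, against 0.135% of all genes. Their median LD-SD difference in apices was 0.37, and 76 of 94 were above 0, with the median of all genes at −0.01. Of the 94 genes chosen in apices, 16 were called higher in LDs in leaves, against 0.148% of all genes, and none was called lower, against 0.277% of all genes. Their median in leaves was 0.29 and 81 were above 0, with the median of all genes at 0.01. With unadjusted p under 0.05 the same limma fit gave 2 lower among the apex genes in leaves. Counts at an unadjusted p, here and below, have no share of all genes at that threshold beside them. They cannot be set against a background, and the percentages given belong to the stricter calls. A call needs a larger difference than the rule, so a gene called higher also met the rule there. All 15 and all 16 genes called higher were thus among the 24 chosen in both tissues, and these counts are a description. In the tissue that did not choose it, none of the 70 genes of either single-tissue group was called higher, which the rule fixes, and *GSTF6* alone was called lower.

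Among the genes chosen in both tissues *AT3G15356* differed by 2.08 in apices and 1.42 in leaves, below *PR4* and *AT3G16530* in each tissue. Of the 70 genes chosen in leaves alone, 36 had an apex difference under 0.2. Of the 70 chosen in apices alone, 42 had a leaf difference under 0.2. The rule itself keeps these values under 0.8, and the median of all genes was −0.01 in apices and 0.01 in leaves. Leaves and apices with the same replicate number may come from the same plants, so the tissues are not independent experiments.

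*CORI3*, a cystine lyase induced by coronatine and jasmonate, lay in the other direction from *GSTF6*. It stood in WT leaves at 8.66, 8.82 and 10.02 in SDs and at 8.80, 8.24 and 7.67 in LDs, and in WT apices at 4.38, 5.07 and 5.60 in SDs and 5.84, 5.87 and 5.31 in LDs. SD and LD arrays of WT overlapped in both tissues. Over genotypes the LD-SD difference was −0.86 in leaves, which did not pass the 2-fold threshold, and 0.80 in apices, and each sign held in all 4 genotypes.

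The mutants were compared with WT at each day length to ask how the chosen genes depend on FLC and SVP. In SD leaves 9 of the 164 genes were called higher and 1 lower in *svp* (0.916% of all genes were called in either direction), 16 higher and 5 lower in *flc* (1.78% of all genes), and 13 higher and 7 lower in *flc svp* (1.75% of all genes). For LD leaves the counts were 2 higher and none lower in *svp* (0.184% of all genes), 17 higher and none lower in *flc* (0.829% of all genes), and 6 higher and 1 lower in *flc svp* (0.855% of all genes). At an unadjusted p under 0.05, limma gave 5 lower in *svp* and 9 lower in *flc* in LD leaves. The median change of the 164 genes stayed between −0.01 and 0.14 in these 6 comparisons. The same WT arrays serve all 3 mutants, so the counts are not independent of one another.

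Several of the genes were already high in mutant leaves in SDs. Those called higher in all 3 mutants were the 7 genes *AT1G02610*, *AT2G39400*, *AT3G15356*, *AT4G36850*, *AT5G22920*, *bZIP63* and *BXL1*. The RING-type zinc finger gene *AT1G02610* stood in SD leaves at 3.57, 3.65 and 3.27 in WT, 4.85, 5.16 and 5.33 in *svp*, 5.87, 5.92 and 6.35 in *flc* and 5.91, 5.39 and 6.36 in *flc svp*. In LD leaves it stood at 3.62, 4.96 and 4.98 in WT and at 7.08, 7.0 and 7.12 in *flc*. WT arrays lay below those of the mutants shown at each day length.

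In SD leaves the change of *AT1G02610* was 1.62 ± 0.27 (SE, 3 against 3 arrays, adjusted p = 1.24e-04) for *svp*, 2.55 ± 0.27 (adjusted p = 1.44e-08) for *flc* and 2.39 ± 0.27 (adjusted p = 4.44e-08) for the double mutant. *AT5G22920*, which encodes a CHY and RING zinc finger protein, was higher by 2.28 ± 0.38, 2.46 ± 0.38 and 1.93 ± 0.38. These 2 genes were also the only members called higher in all 3 mutants in LD leaves, with *AT5G22920* up by 3.10 ± 0.38 (adjusted p = 6.76e-07) in *flc*. In WT apices *AT1G02610* ran from 3.05 to 3.78, and no mutant was called there at either day length.

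The WT LD leaf array of replicate 1 weighs on the LD calls. *AT5G22920* stood in LD leaves of WT at 5.83, 8.13 and 8.67, so that this array lay below the others and below the WT arrays of SDs (6.32, 6.74 and 7.58). Without it the calls in LD leaves went from 2 to 0 in *svp* and from 17 to 10 in *flc*. The SD leaf counts for *svp* went from 10 to 5 without replicate 2 of WT.

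The largest changes in *flc* leaves in SDs were those of *AT3G15356* (3.45 ± 0.35, adjusted p = 6.46e-09), the late-embryogenesis-like stress gene *SAG21* (3.05 ± 0.45, adjusted p = 6.64e-06) and *AT1G02610*. *SAG21* stood in SD leaves at 6.91, 7.01 and 6.63 in WT and at 10.93, 9.92 and 8.85 in *flc*, without overlap. In *flc svp* the PQ-loop protein gene *AT4G36850* had the highest change, by 2.98 ± 0.34 (adjusted p = 4.78e-08). Lower in all 3 mutants was *SAUR16* alone, which stood in SD leaves at 10.31, 9.98 and 10.36 in WT, 8.90, 8.86 and 8.57 in *svp*, 7.92, 8.20 and 8.01 in *flc* and 8.28, 8.72 and 8.35 in *flc svp*. Its fall was 1.44 ± 0.30 in *svp* (adjusted p = 0.00182) and 2.17 ± 0.30 in *flc* (adjusted p = 1.67e-06). All mutant arrays of *SAUR16* lay below those of WT in SDs, while in LD leaves its changes of −0.70, −0.87 and −0.87 were not called. The unnamed gene *AT5G54585* was lower in *flc* by −1.22 ± 0.28 and in *flc svp* by −1.72 ± 0.28, and *PRE1* in *flc* by −1.61 ± 0.42 (adjusted p = 0.00933).

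In LD leaves 12 of the 17 genes called higher in *flc* were called in *flc* alone. They included the 3-ketoacyl-CoA synthase *KCS12* of wax synthesis, which stood at 5.53, 5.53 and 5.88 in WT and at 7.58, 7.08 and 7.41 in *flc*, and was higher by 1.71 ± 0.20 (adjusted p = 4.13e-07). *YUC9* stood in LD leaves at 3.37, 3.46 and 3.72 in WT and at 6.11, 6.50 and 6.45 in *flc svp*, a rise of 2.83 ± 0.51 (adjusted p = 2.73e-04). Both genes had mutant arrays clear of those of WT. The MYB-related *RL2* was the member lower in *flc svp*, by −1.49 ± 0.37 (adjusted p = 0.00783), with arrays at 6.77, 7.35 and 7.85 in WT and 5.91, 5.13 and 6.47 in the double mutant.

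In apices the calls went the other way. In SDs no member was called higher and 10 were called lower in *svp* (0.216% of all genes), 1 higher and 1 lower in *flc* (0.0742% of all genes), and 2 higher and 14 lower in *flc svp* (0.474% of all genes). In LDs the counts were 0 and 10 in *svp* (0.142% of all genes), 1 and 0 in *flc* (0.0645% of all genes), and 1 and 23 in *flc svp* (0.393% of all genes). In the directions with no call, an unadjusted p under 0.05 in limma gave 9 higher in SDs and 15 higher in LDs for *svp*, and 16 lower in LDs for *flc*. For these counts too, no share of all genes at that threshold is given. All 10 genes lower in *svp* in SDs were among the 94 chosen in apices, as were all 10 in LDs and all 23 lower in *flc svp* in LDs. For these 94 genes the median change in LD apices was −0.18 for *svp*, −0.13 for *flc* and −0.45 for the double mutant.

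**Figure D4:**
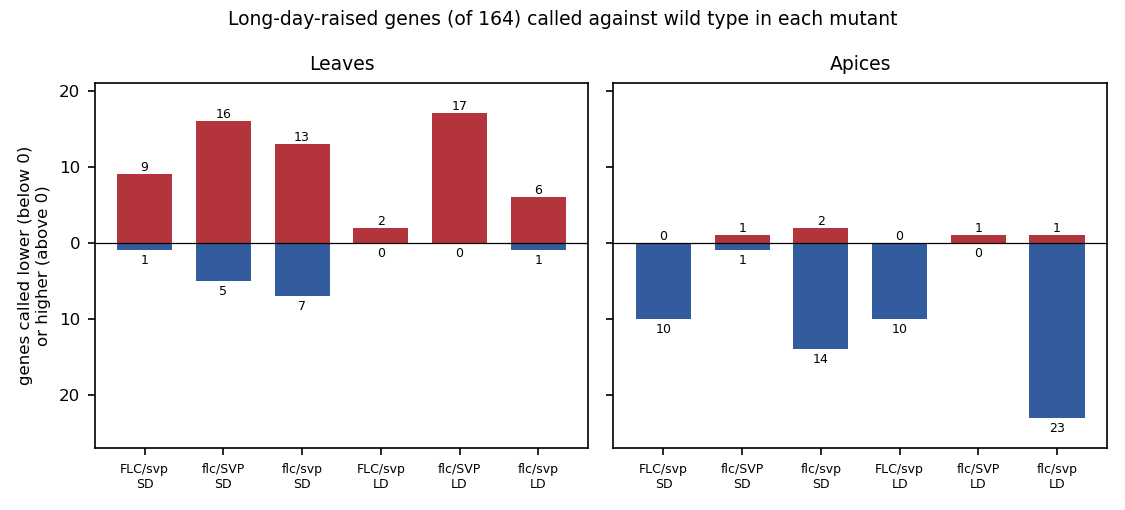
Number of the 164 genes called higher (red, upward) or lower (blue, downward) than WT in each mutant, in SDs and LDs, for leaves (left) and apices (right). In leaves 17 genes were higher in *flc* in LDs and none lower, and in apices 23 were lower in *flc svp* in LDs and 1 higher.

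All 10 genes called lower in *svp* in LD apices were also called lower in *flc svp*, and none of them in *flc*. They were the lipases *GLL22*, *AT1G74460* and *AT2G23540*, the glycine-rich protein *GRP9*, the peroxidase *AT2G18150*, the defence genes *HCHIB*, *PR2* and *EARLI1*, the hydroxyproline-rich *AT5G09480* and the CASP-like membrane protein gene *AT5G44550*. In *flc* all 10 changes were also below 0, from −0.36 for *HCHIB* to −0.92 for *AT2G18150*. A missing call in *flc* thus does not show that *flc* left these genes unchanged, and *svp* was not tested against *flc*. *GRP9* stood in LD apices at 7.47, 7.84 and 6.56 in WT, 5.87, 4.67 and 4.53 in *svp*, 7.18, 7.22 and 5.48 in *flc* and 4.43, 4.97 and 4.03 in *flc svp*. In SD apices its 12 arrays lay between 4.1 and 5.26. WT and *flc* arrays were thus high in LDs, and *svp* and *flc svp* arrays lay below all of WT.

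*GRP9* was lower by −2.27 ± 0.37 (adjusted p = 2.82e-04) in *svp* and by −2.81 ± 0.37 (adjusted p = 4.90e-06) in *flc svp* in LD apices. *HCHIB* stood in LD apices at 7.04, 7.28 and 7.47 in WT, 5.49, 5.58 and 5.73 in *svp*, 7.09, 6.93 and 6.69 in *flc* and 5.38, 5.63 and 5.73 in *flc svp*. Its values in *svp* and *flc svp* lay clear below WT, by −1.66 ± 0.16 (adjusted p = 4.87e-09) and −1.68 ± 0.16 (adjusted p = 3.50e-09). *EARLI1* was lower by −1.96 ± 0.36 in *svp* and −2.50 ± 0.36 in *flc svp*, and *AZI1*, its neighbour of similar sequence, by −2.58 ± 0.39 in *flc svp*. The *svp* arrays of *EARLI1* overlapped those of WT, since replicate 1 stood at 5.93 against 7.18, 7.16 and 5.84.

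In SD apices 7 genes were called lower in *svp* and *flc svp* and not in *flc*. Among them were *AT3G22620* and *PR4*. In *flc* all 7 changes were also below 0, from −0.31 for *PR4* to −1.30 for *AT3G22620* (limma, adjusted p = 0.0553). *AT1G74460* (−1.02), *AT4G20390* (−1.14) and *AT4G38080* (−1.18) were likewise lower in *flc* by over 2-fold and failed only the adjusted p. The split between *svp* and *flc* thus rests on the call thresholds. *AT3G22620* stood in SD apices at 6.71, 7.06 and 6.17 in WT, 4.39, 3.92 and 4.00 in *svp*, 4.49, 6.69 and 4.88 in *flc* and 3.71, 3.99 and 4.08 in *flc svp*. *PR4* stood in SD apices at 6.39, 6.89 and 6.51 in *svp* and 6.13, 6.77 and 6.76 in *flc svp*, below the WT values given above, and was lower by −1.83 ± 0.38 (adjusted p = 0.0054) and −1.87 ± 0.38 (adjusted p = 0.00203). WT replicate 2 had the highest SD apex value of WT in both genes, and without that array the SD apex counts went from 10 to 4 in *svp* and from 16 to 8 in *flc svp*.

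Few members were higher in mutant apices. *AT1G19530*, of unknown function, stood in SD apices at 3.77, 3.62 and 3.62 in WT and at 5.28, 5.14 and 5.01 in *flc*, and was higher by 1.48 ± 0.19 (adjusted p = 2.18e-05) in *flc* and 1.36 ± 0.19 in *flc svp* in SDs. It was the only member called in *flc* apices in LDs (1.09 ± 0.19, adjusted p = 0.00295). *PRE1* stood in LD apices at 4.66, 4.40 and 4.57 in WT and at 7.12, 7.21 and 7.51 in *flc svp*, a rise of 2.73 ± 0.42 (adjusted p = 5.49e-05). For both genes the mutant arrays lay clear above WT.

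Whether the response to LDs itself depended on genotype was tested as the LD-SD difference of a mutant minus that of WT. In leaves none of the 164 genes was called for *svp* (0.00323% of all genes), 1 for *flc* (0.1% of all genes) and 1 for *flc svp* (0.0871% of all genes). In apices 1 was called for *svp* (0.00645% of all genes), none for *flc* (0% of all genes) and 1 for *flc svp* (0.0129% of all genes). At an unadjusted p under 0.05 the limma fit gave 1 higher and 5 lower for *svp* in leaves and 8 higher and 4 lower for *flc* in apices. A missing call does not show that the response was the same. With 3 arrays a group the standard error of such a difference was 0.22 for *AT1G78850* and 0.35 for *AT2G18150*, which were called. Among genes not called it reached 0.72 for *LNK3*, 1.09 for *ATHB2* and 1.35 for *PDF1.2A*.

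The gene called in leaves was *AT1G78850*, a mannose-binding lectin chosen in apices. It stood in leaves of WT at 8.29, 8.21 and 8.21 in SDs and 9.40, 9.20 and 9.34 in LDs. In *flc* it stood at 10.58, 10.40 and 10.07 in SDs and 10.01, 9.89 and 9.76 in LDs, and in *flc svp* at 10.20, 10.11 and 9.84 and at 9.39, 9.37 and 9.65. LD arrays lay above SD arrays in WT leaves and below them in *flc* and *flc svp*. Against WT the LD-SD difference was lower by −1.53 ± 0.22 (adjusted p = 3.57e-04) in *flc* and −1.65 ± 0.22 (adjusted p = 9.64e-05) in *flc svp*. Its neighbour *AT1G78860* had leaf differences of 0.82 in WT, −0.40 in *flc* and −0.44 in *flc svp*, which were not called, and shared probes could link the values of this pair. With all arrays of 1 replicate number left out, the call of *AT1G78850* was lost in *flc* for each number (adjusted p from 0.0122 to 0.0335) and in *flc svp* without replicate 1 (adjusted p = 0.0158) or replicate 2 (adjusted p = 0.0113).

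The gene called in apices was the peroxidase *AT2G18150*. It stood in LD apices at 5.90, 6.31 and 5.15 in WT, 4.19, 3.27 and 2.97 in *svp*, 5.10, 5.19 and 4.3 in *flc* and 3.39, 3.15 and 3.38 in *flc svp*. In SD apices all 12 arrays lay between 2.81 and 3.47. The LD-SD difference was 2.69 in WT and 1.79 in *flc* but 0.27 in *svp* and 0.16 in *flc svp*, lower than WT by −2.42 ± 0.35 (adjusted p = 7.36e-04) and −2.53 ± 0.35 (adjusted p = 5.83e-04). In a fit of apices alone both calls of *AT2G18150* were lost (adjusted p = 0.187 and 0.0426). Without replicate 1 the adjusted p were 0.141 and 0.155, and without replicate 2 they were 0.802 and 0.316, while without replicate 3 only the *svp* call was lost (adjusted p = 0.0154). *GRP9*, *EARLI1* and *AZI1* were not called in either mutant, with adjusted p from 0.0979 to 0.118 for *flc svp* and 0.216 or higher for *svp*. Their LD-SD differences in apices were 2.41, 2.45 and 2.55 in WT, 2.21, 2.05 and 2.07 in *flc*, 0.55, 0.10 and 0.43 in *svp*, and 0.06, 0.15 and 0.01 in *flc svp*.

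The interaction of *FLC* and *SVP* compares the double mutant with what adding both single-mutant changes would give. It was called for 1 member above 0 and 6 below 0 in SD leaves (1.11% of all genes) and for 0 and 6 in LD leaves (0.4% of all genes). In apices it was called for none in SDs (0.00968% of all genes) or LDs (0.0129% of all genes), where an unadjusted p under 0.05 gave 10 above and 3 below in SDs and 5 above and 17 below in LDs. The value furthest below 0 was that of *AT2G20670*, a DUF506 protein gene, at −3.69 ± 0.69 (adjusted p = 6.49e-04) in SD leaves. *AT2G20670* stood in SD leaves at 7.35, 6.96 and 8.56 in WT, 9.96, 9.91 and 10.32 in *svp*, 8.95, 9.15 and 10.07 in *flc* and 7.98, 7.75 and 8.68 in *flc svp*. Both single mutants lay above WT, and the double mutant overlapped WT. *SAUR16*, lower in each mutant, gave the value above 0 (1.85 ± 0.42, adjusted p = 0.00728). Without the LD leaf array of WT replicate 1 the LD leaf count went from 6 to 1.

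Leaves and apices were compared over all genotypes and day lengths, on the same arrays that the rule used. The LD-SD difference of the tissue that chose a gene adds to its mean there, so the split by choosing tissue is given as a description. Of the 164 genes, 48 were called higher in leaves and 47 higher in apices, 57.9% in all, against 8.76% of all genes. The genes chosen in leaves alone were called higher in leaves in 36 of 70 cases and higher in apices in 3, with a median of 1.04. Those chosen in apices alone were called higher in apices in 39 of 70 cases and higher in leaves in 7, with a median of −1.06, and the median of all genes was 0.05. The 24 genes chosen in both tissues had a median of 0.19, with 5 called each way. Within SD arrays, where the LD level does not enter, the medians were 0.61 for genes chosen in leaves alone and −0.57 for those chosen in apices alone, and within LD arrays 1.34 and −1.49.

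The widest tissue differences were those of *AT1G66100* and *PRXCA*. *AT1G66100*, a thionin, ranged in WT leaves from 8.85 to 10.98 and in WT apices from 3.35 to 6.14, and was higher in leaves by 5.83 ± 0.18 (SE, 24 against 24 arrays, adjusted p = 8.45e-27). The peroxidase *PRXCA* stood at 10.50, 10.52 and 10.22 in WT apices in SDs and at 3.87, 4.35 and 5.11 in WT leaves, and was higher in apices, with leaves minus apices at −5.75 ± 0.11 (adjusted p = 1.56e-32). Arrays of the tissues did not overlap for either gene. *CORI3*, chosen in apices, was higher in leaves by 3.51 ± 0.13. Over all arrays 12 genes chosen in apices were called higher in leaves, and 8 chosen in leaves were called higher in apices.

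**Figure D5:**
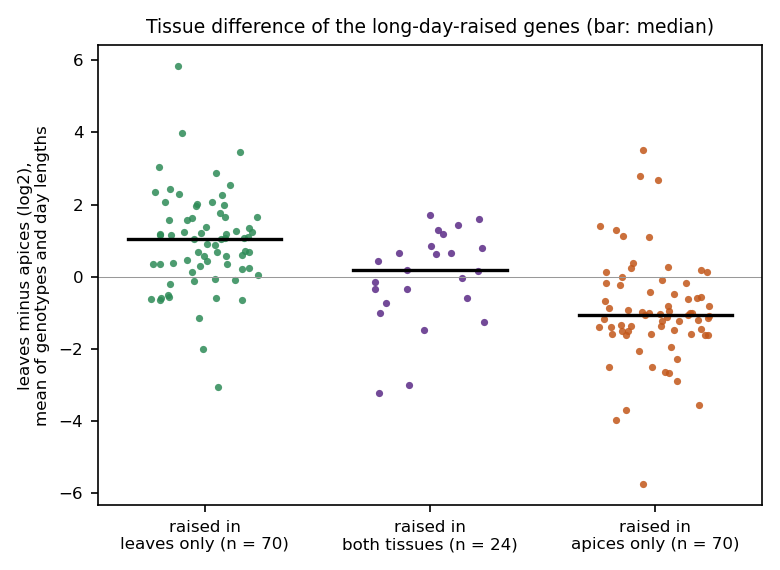
Leaves minus apices (log2, averaged over genotypes and day lengths) of each gene chosen in leaves alone, in both tissues or in apices alone (points, spread sideways only for legibility), with bars at the medians of 1.04, 0.19 and −1.06.

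Of the 164 genes, 21 stood on lists of genes of known pathways. Of 35 clock and photoperiod genes, 3 were called higher in LD leaves (*LNK3*, *COL1* and *COL2*) and none lower, and in apices none was called higher and *ELF4*, a component of the evening complex, was called lower by −2.32 ± 0.32 (adjusted p = 1.41e-06). The median of the clock list was 0.13 in leaves and 0.09 in apices. Its genes went both ways at an unadjusted p under 0.05 in limma, with 18 higher and 11 lower in leaves and 15 higher and 14 lower in apices. Of 30 light signalling genes *BBX25* alone was called, in leaves, and the list medians were 0.20 and 0.10. Of 18 light-harvesting genes *LHCB4.3* was called in leaves and *LHCB2.3* in apices, with list medians of 0.07 and 0.04.

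None of 36 flowering genes was called in either tissue in the average over genotypes, and none was among the 164. At an unadjusted p under 0.05 limma gave 12 of them higher and 1 lower in leaves, and 5 higher and 6 lower in apices. Of 19 gibberellin genes none was called or chosen in either tissue. For these the same unadjusted p gave 4 higher and 5 lower in leaves, and 4 higher and 2 lower in apices. Of 33 flavonoid and anthocyanin genes only *MYBL2* was chosen, in leaves, while 8 were called lower in apices, among them chalcone synthase *CHS* (−1.07 ± 0.22), *DFR* (−1.52 ± 0.35) and *UGT79B1* (−1.76 ± 0.24). Of 17 genes of dark and sugar starvation 1 was called higher and 1 lower in leaves and 2 higher in apices. Of 33 starch metabolism genes 1 was chosen, in apices, and none was called in either tissue (list medians −0.21 in leaves and −0.12 in apices). At an unadjusted p under 0.05 limma gave 5 starch genes higher and 20 lower in leaves, and 8 higher and 14 lower in apices. Of 23 jasmonate genes only *PDF1.2A* was called higher in leaves and 10 were called lower, and of 17 genes of salicylic acid *PR2* was called higher in apices, 1 was lower in apices and 1 lower in leaves. Where a listed gene among the 164 was called, the call was in the contrast that chose it and adds no support.

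RefSeq names matched 161 of the 164 loci, 158 of them protein coding, and 2 members are encoded in the chloroplast. In 9 cases 2 members lay within 5 genes of each other, and 6 of these pairs are similar genes, namely *GSTF6* and *GSTF7*, *GLL22* and *GLL23*, *AT1G78850* and *AT1G78860*, *Prx37* and *AT4G08780*, *AZI1* and *EARLI1*, and *SAUR21* and *SAUR22*. No pair had identical values. *GLL22* was chosen in apices (1.5) and *GLL23* in leaves (0.81), with 0.18 and 0.47 in the other tissue. Probes that match both genes of such a pair would mix their signals.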

How the data were processed

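Per the labels and the methods, the authors hybridised 1 sample to each of 48 AGRONOMICS1 arrays and deposited log2 expression values, background-corrected, normalised across arrays and summarised per gene by RMA in R. The annotation release is not given in the sources used here. No depth exists for arrays, and precision rests on 3 arrays a group. The deposited values cover 31004 genes, and every column of samples was used.

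Here group means, LD minus SD and the rule at 0.8 were computed from these values. One limma model (version 3.58.1, R 4.3.3, with data.table in version 1.17.8) was fitted to all genes with 16 group means, replicate numbers entering as a random block, following the methods (duplicateCorrelation 0.0336), and eBayes. P-values were adjusted by Benjamini-Hochberg over all genes within each contrast, in place of the q-values of the methods, and calls required over 2-fold and adjusted p under 0.01. The model was run on simulated data with independent noise and no replicate effect, so that run does not bear on the replicate differences described above. The members, lists and roles were chosen with earlier results of these data known, and the role groups were formed after values were seen.

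Genes named were the 12 highest in each tissue, the 8 highest in both, list members, the 3 largest calls each way in a contrast and the threshold neighbours, while others were named after their values were seen. RefSeq names came from TAIR10.1. A planned description of promoter motifs was not made. Alternatives were no block, separate fits for tissues, no fold threshold, median centring, leaving out dim genes, another rule threshold, and leaving out each array or, chosen after seeing the data, each replicate number. Fits that left out arrays kept the correlation of the full fit.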

Additional observations from a re-analysis of the deposited data

Results flagged for a closer look

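In leaves the LD-SD difference of the lectin gene *AT1G78850* was lower than in WT by −1.53 in *flc* and −1.65 in *flc svp*, with SD and LD arrays in opposite order in WT and in these mutants. In apices that of the peroxidase gene *AT2G18150* was lower than in WT by −2.42 in *svp* and −2.53 in *flc svp*. These stood out because the response itself differed between genotypes in a direct test. The calls did not hold under every setting. Leaving out replicate 1 or replicate 2 gave 0 calls for both genes in these mutants, a fit of apices alone gave 0 for *AT2G18150*, and without dim genes *AT2G18150* was not tested.

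*GSTF6* had a positive LD-SD difference in leaves (1.27) and a negative one in apices (−1.14), in all 4 genotypes each way. *CORI3* had the reverse, −0.86 in leaves and 0.80 in apices, also in all 4 genotypes. For both genes the difference between the tissues was not tested, and the positive value had chosen the gene.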

How the results depend on the processing

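With a rule threshold of 1.0, 47 genes were chosen in leaves, 53 in apices, 10 in both and 90 in either. With no replicate block, 1 member was called in *flc* SD apices (2 with it), and no other count moved by over 1.5 times. Fits within each tissue called 3 (10 in the joint fit) in *svp* SD leaves, 13 (21) in *flc* SD leaves, 2 (7) for the SD leaf interaction, 0 (2) in *svp* and 4 (7) in *flc svp* LD leaves, 0 (6) for the LD leaf interaction, 4 (10) in *svp* and 1 (2) in *flc* SD apices, 5 (10) in *svp* LD apices, and 0 (1) for the altered LD response in apices of *svp* and of *flc svp*. Without a fold threshold, 35 genes (16) were called in each cross-tissue test. Without dim genes, 3 (1) were called for the LD response of *flc svp* leaves, 4 (2) in *flc* SD apices, and 0 (1) for the apex response of *svp* and *flc svp*, since *AT2G18150* was then not tested.

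Leaving out an array or a replicate number gave 71 to 177 leaf genes, 86 to 121 apex genes, 19 to 35 in both and 142 to 263 in either. For members called the ranges were 0 to 9 in *svp*, 12 to 20 in *flc* and 12 to 22 in *flc svp* SD leaves, 0 to 9 for the SD interaction, 0 to 3, 4 to 19 and 3 to 9 in LD leaves, and 0 to 7 for the LD interaction. In apices they were 2 to 12, 0 to 6 and 7 to 16 in SDs and 3 to 14, 0 to 1 and 11 to 26 in LDs. The LD response gave 0 to 2 for *flc* and 0 to 4 for *flc svp* in leaves, and 0 to 2 each for *svp* and *flc svp* in apices. The cross-tissue tests gave 13 to 20 in leaves and 12 to 18 in apices, and the tissue test 88 to 97. Calls of single genes were followed for 195 cases, which include the cross-tissue calls and, for leaves against apices, only the 3 widest each way. Of these, 65 held under every alternative in which they were tested, 130 were lost under at least 1, and 0 reversed. Without dim genes only 168 of the 195 were tested, and calls not tested were not counted as lost. The causes were not tested.

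Deviations from the group mean correlated at a median r of 0.05 between arrays of the same replicate number (83 of 360 pairs over 0.1) and of −0.03 between different numbers (12 of 720 pairs over 0.1), and 41 of 48 arrays correlated best with their own number. Same-numbered arrays thus tended to deviate together, but since not every pair was over 0.1 and no label says what a number marks, no pairing of samples was assumed beyond the replicate block.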

Other observations

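Some listed genes were called lower in LDs, and the groups themselves were not tested. In leaves 10 of 23 jasmonate genes were called lower and 1 higher (list median −0.94), led by *JAZ7* (−2.20 ± 0.23), a repressor of jasmonate signalling, and the vegetative storage protein gene *VSP1* (−1.80 ± 0.37). The 1 called higher was the defensin *PDF1.2A*, a member of the raised set. In apices none was called in limma, with 1 higher and 7 lower at an unadjusted p under 0.05.

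Of 25 genes of glucosinolate synthesis, 7 were called lower in leaves (list median −0.82), among them *CYP79B3* (−1.38 ± 0.13) of the indolic branch and the sulfotransferase gene *SOT17* (−1.38 ± 0.10). In apices none was called, with 3 higher and 4 lower at an unadjusted p under 0.05 in limma. Of 18 cold and dehydration genes, 4 were called lower in leaves and 5 in apices, including *COR15A* in both (−1.66 ± 0.20 and −1.70 ± 0.20). The galactinol synthase *GOLS3*, also on that list, was among the genes raised in apices. Other stress lists had few such calls, with 1 of 17 salicylic acid genes lower in each tissue (list medians 0.01 in leaves and −0.03 in apices). Of 12 heat shock genes none was called in limma in either tissue, with 1 higher and 3 lower in leaves and 1 higher and 4 lower in apices at an unadjusted p under 0.05.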
